A study of Mus musculus with 19 samples.

Results

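Collagen transcripts were followed in the quadriceps of mice with spinal and bulbar muscular atrophy (SBMA) and of control mice, fed a purified normal chow (NCD) or a diet high in fat (HFD). Members were chosen by name alone, as every gene on the array whose symbol was Col, a type number, the letter a and a chain number. The rule found 44 genes among the 30214 named genes on the array, and 41 of them were tested among 24741 genes. A gene was tested when a probe was called well above background by the scanner software on at least 4 of the 19 arrays, a filter that used no group. The remaining 3 genes did not pass it: Col9a3, a chain of the cartilage collagen type IX, Col10a1, of the growth plate, and Col17a1, of the skin hemidesmosome. The 41 tested genes were 11 of the 11 fibrillar collagens, 8 of 8 basement membrane collagens, 6 of 6 type VI chains, 8 of 9 fibril-associated collagens with interrupted helices (FACITs), 3 of 4 transmembrane collagens and 5 of 6 others.

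All mice were male, of the C57Bl6J background and 180 days old at collection. The 4 groups were wild-type mice on NCD (CTR-NCD, 5 arrays), AR113Q mice on NCD (AR113Q-NCD, 5 arrays), wild-type mice on HFD (CTR-HFD, 4 arrays) and AR113Q mice on HFD (AR113Q-HFD, 5 arrays). AR113Q mice are knock-in mice whose androgen receptor carries an expanded run of glutamines, so the expanded receptor is made wherever the mouse gene is active and not in muscle fibers alone. Both diets were given from 40 days of age.

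A collagen molecule is made of 3 chains wound into a helix, and a glycine stands in each Gly-X-Y triplet of the helical part because no larger residue fits its centre. In skeletal muscle, fibrils of types I, III and V fill the sheaths between fibers, type VI forms a fine network at the fiber surface, and type IV forms the sheet of the basement membrane that each fiber and capillary rests on. Most of these chains are made by fibroblasts and fibro-adipogenic cells, while endothelial cells and muscle fibers contribute to the basement membrane.

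The Gly-X-Y repeat can be read in the probes themselves. The 3 probes below are shown because their targets come up in the results and because they lie in coding helix. Capitals mark GGN glycine codons in the reading frame without a stop codon that holds the most of them, and positions are those of mm9, the build in the files.
Col15a1 main probe, chr4:47283786-47283845, plus strand: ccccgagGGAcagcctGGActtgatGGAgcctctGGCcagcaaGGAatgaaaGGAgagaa
Col25a1 main probe, chr3:130270497-130270556, plus strand: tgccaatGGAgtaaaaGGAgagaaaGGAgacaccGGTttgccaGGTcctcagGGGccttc
Col4a4 second probe, chr1:82515563-82515622, minus strand: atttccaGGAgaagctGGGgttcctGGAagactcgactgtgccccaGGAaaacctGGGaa
In the Col15a1 and the Col25a1 probe, glycine held 6 of 19 codons and stood at each place where the repeat calls for it. These were the only 2 such probes among the 69 on the array for members. The Col4a4 probe held 5 glycine codons of 19 and lost the repeat in the middle of its length, as the helix of type IV chains does in several places.

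Values below are log2 signals relative to the 75th percentile of the same array, so a negative level is a signal below that percentile, and n counts arrays. Levels were set against each other only within a probe, except where the main probe of a gene was chosen. Between 67.1% and 80.1% of probes were well above background per array, arrays of the same group correlated at 0.980 to 0.991, and no collagen spot was saturated. Fast fiber genes, which mark quadriceps, averaged 7.35 to 8.16 on every array. The labels and methods do not say whether an array held RNA of a single mouse. The p-values therefore set group differences against the spread between these samples. That spread includes any difference between slides, unless the slide was a block. The number of arrays limits the precision.

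Between AR113Q and CTR muscle few collagens passed the test at their main probe, the tested probe with the highest mean over all 19 arrays. Those that did were minor basement membrane chains and a minor fibrillar chain rather than the main chains of the interstitial matrix. A second probe of the FACIT chain Col9a1 was also called on both diets, as given below. On NCD 1 of 41 collagens was called at an adjusted p under 0.05 in limma, the type IV chain Col4a4, which was lower, while 17.4% of all genes tested were called. On HFD 2 of 41 were called, Col11a2 and Col4a3, both higher, against 17.9% of all genes. Over both diets together 4 of 41 were called, with Col11a2 and Col4a5 higher and Col4a4 and Col15a1 lower, against 29.1% of all genes. The called collagens were thus 2.44%, 4.88% and 9.76% of those tested. By direction, 8.31% of all genes were higher and 9.04% lower on NCD, 7.74% and 10.2% on HFD, and 13% and 16% over both diets. When a fold of at least 1.5 or at most 0.6 was also required, 0, 1 (Col11a2) and 0 collagens were called, against 4.29%, 4.7% and 5.08% of all genes. As RNA was taken from whole muscle, fewer cells of a type and less RNA per cell cannot be told apart in any of these values.

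Over the 41 collagens, the median log2 difference of AR113Q minus CTR was 0.01 on NCD, 0.12 on HFD and 0.06 over both diets. The same medians over all genes were -0.06, -0.08 and -0.07. On NCD 21 collagens were above 0 and 20 below, and on HFD 25 were above and 16 below. At an unadjusted p under 0.05 there were 3 collagens on NCD (Col4a4, Col4a5 and Col6a4) and 6 on HFD (Col11a2, Col4a3, Col4a4, Col4a5, Col15a1 and Col7a1), where 28.1% and 29% of all genes stood. Over both diets there were 8, with Col24a1 and Col20a1 beside Col11a2, Col4a3, Col4a4, Col4a5, Col15a1 and Col7a1, against 38.2% of all genes. Arrays of the 2 genotypes did not overlap at all for 1 collagen on NCD, Col4a4, and for 3 on HFD, Col11a2, Col15a1 and Col22a1, where this held for 15.5% and 15.7% of all genes.

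By the median, the collagens spread more between arrays than all genes did, and the part of this spread in the counts above was not tested. The median SD within groups was 0.350 for the 41 collagens and 0.244 for all genes. Over both diets the 95% interval of 36 of 41 collagens stayed within a 2-fold change in either direction, and that of 20 stayed within 1.5-fold. On NCD these counts were 30 and 16, and on HFD 26 and 8.

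**Figure D1:**
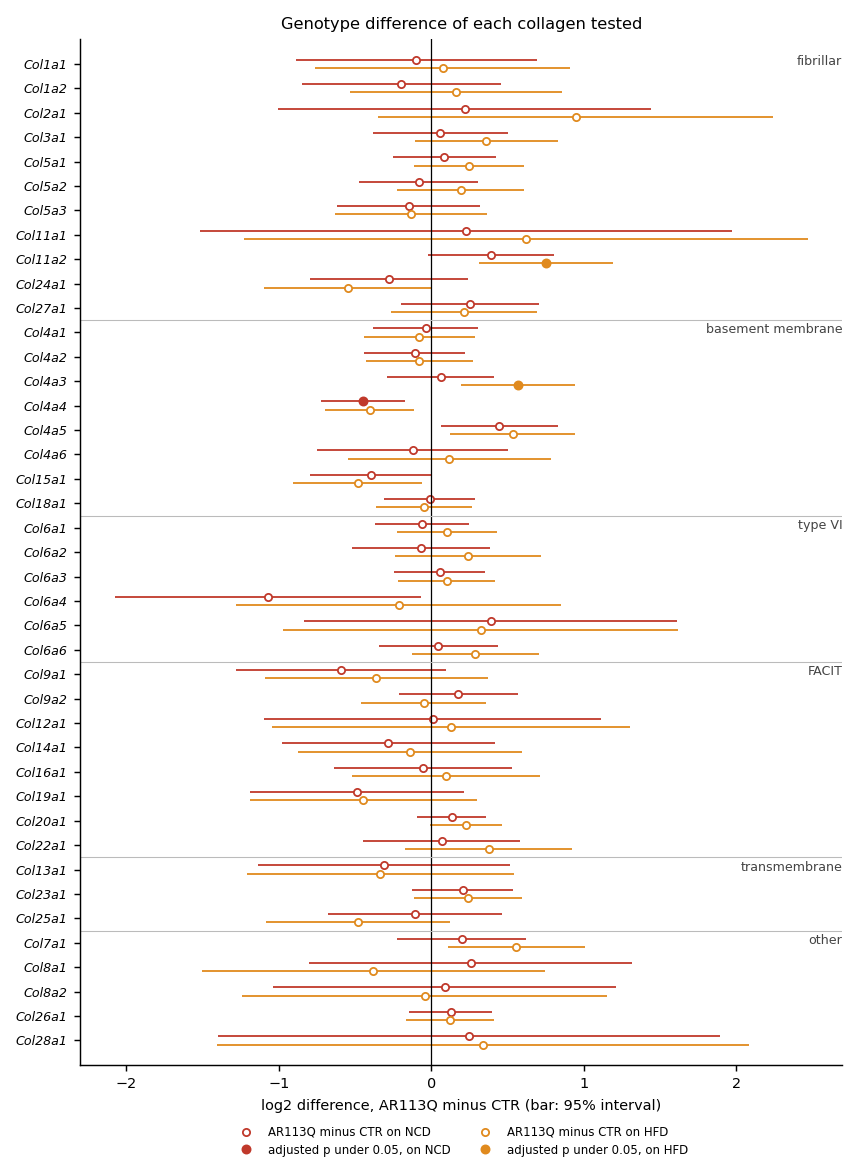
Log2 difference of AR113Q minus CTR for each of the 41 collagens tested, by class, on NCD (red) and on HFD (orange), with 95% intervals as bars and filled points for an adjusted p under 0.05. Filled points are Col4a4 on NCD and Col11a2 and Col4a3 on HFD, and the widest intervals belong to Col11a1 and Col28a1.

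Of the fibrillar collagens, which assemble into banded fibers, the main interstitial chains did not pass the test in any comparison. Col1a1 and Col1a2 encode the chains of type I collagen, the bulk of tendon, bone and muscle sheaths. Col1a1 read 2.65, 3.99, 4.29, 2.38 and 2.69 on the CTR-NCD arrays and 3.77, 2.19, 3.24, 3.82 and 2.49 on the AR113Q-NCD arrays, and 2.84, 2.59, 3.44 and 2.99 on the CTR-HFD and 3.13, 2.78, 3.12, 2.99 and 3.18 on the AR113Q-HFD arrays. Col1a2 read 5.32, 6.49, 6.58, 5.03 and 5.05 on the CTR-NCD arrays and 5.96, 4.84, 5.59, 6.10 and 5.0 on the AR113Q-NCD arrays, and 5.26, 5.04, 5.63 and 5.42 on the CTR-HFD and 5.55, 5.37, 5.71, 5.34 and 5.53 on the AR113Q-HFD arrays. Both genes had 2 high CTR-NCD arrays, replicates 2 and 3, and the groups overlapped throughout, with the AR113Q-HFD arrays closest together. The Col1a1 difference of AR113Q minus CTR was -0.10 ± 0.37 (SE, adjusted p = 0.906) on NCD and 0.07 ± 0.40 (adjusted p = 0.931) on HFD. Over both diets the fold was 0.99, with a 95% interval from 0.67 to 1.48. The Col1a2 difference over both diets was -0.02 (95% interval -0.49 to 0.46, adjusted p = 0.964).

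Col3a1 encodes type III collagen, a fibril of pliable tissues, and Col5a1 a chain of type V, which nucleates type I fibrils and sets their width. The levels of Col3a1 were 3.26, 3.83, 4.17, 3.67 and 3.68 on the CTR-NCD arrays and 4.17, 3.30, 3.94, 4.30 and 3.21 on the AR113Q-NCD arrays, and 3.27, 3.34, 3.60 and 3.90 on the CTR-HFD and 3.86, 3.77, 4.15, 3.83 and 3.84 on the AR113Q-HFD arrays. Those of Col5a1 were 0.11, 0.54, 0.79, 0.37 and 0.08 on the CTR-NCD arrays and 0.76, 0.08, 0.64, 0.78 and 0.07 on the AR113Q-NCD arrays, and 0.20, 0.30, 0.41 and 0.57 on the CTR-HFD and 0.59, 0.50, 0.81, 0.55 and 0.64 on the AR113Q-HFD arrays. On NCD the genotypes overlapped across nearly their whole range for both genes, while on HFD the AR113Q arrays lay in the upper part of the CTR range or above it. For Col3a1 the difference was 0.06 (adjusted p = 0.898) on NCD and 0.36 (adjusted p = 0.311) on HFD, and for Col5a1 it was 0.09 (adjusted p = 0.791) and 0.25 (adjusted p = 0.371). In 2-sided exact permutation tests on the HFD arrays alone, p was 0.0556 for Col3a1 and 0.0397 for Col5a1, unadjusted for the number of genes. Within slides, Col5a1 was higher in the AR113Q-HFD array on 4 of the 4 slides that held both groups and Col3a1 on 3 of 4.

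**Figure D2:**
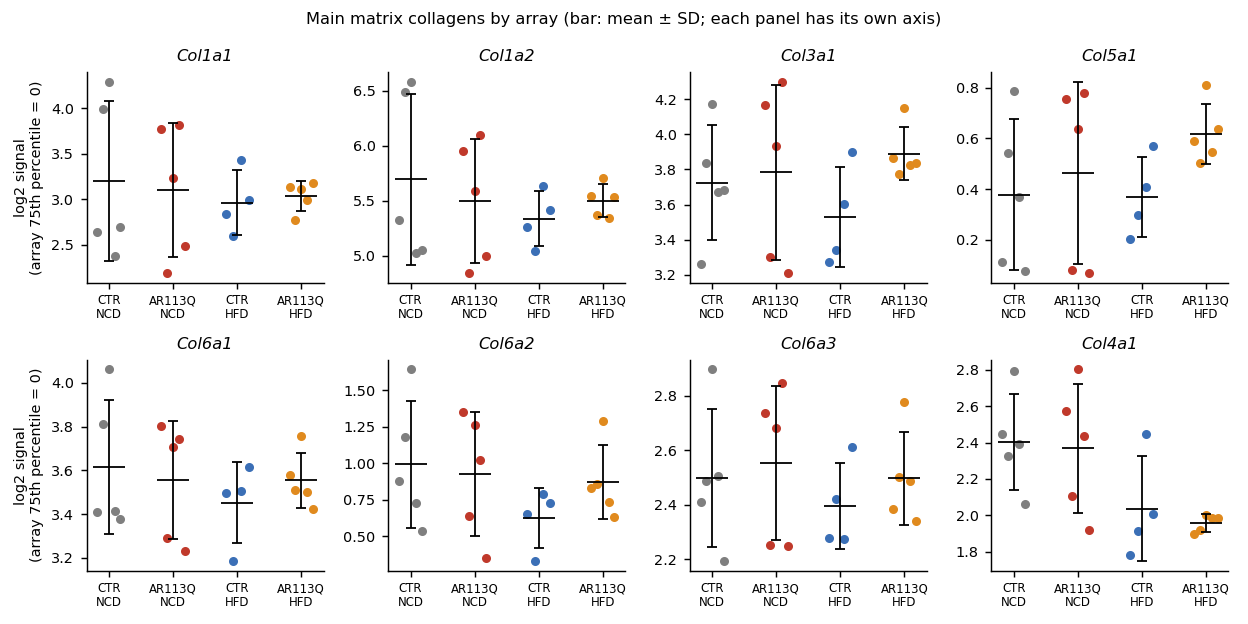
Log2 signal of 8 main matrix chains on each array, relative to the array's 75th percentile, with 1 point per array and the mean ± SD per group. In every panel the 2 NCD groups overlap and spread more widely than the AR113Q-HFD arrays. The AR113Q-HFD arrays lie closest together except for Col6a2 and Col6a3, where the CTR-HFD arrays do.

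Col11a2 was the fibrillar chain that changed. It encodes a chain of type XI collagen, known from cartilage, where it forms the core of thin fibrils. Its levels were -3.48, -2.47, -2.64, -3.32 and -3.41 on the CTR-NCD arrays and -2.23, -2.93, -2.68, -2.88 and -2.62 on the AR113Q-NCD arrays, and -3.29, -3.21, -3.19 and -3.56 on the CTR-HFD and -2.56, -2.30, -2.38, -2.64 and -2.93 on the AR113Q-HFD arrays. All AR113Q-HFD arrays were above all CTR-HFD arrays, whereas on NCD the CTR replicates 2 and 3 reached into the AR113Q range. Col11a2 rose by 0.75 ± 0.21 on the log2 scale on HFD (SE, fold 1.68, adjusted p = 0.0175), and by 0.57 ± 0.14 over both diets (fold 1.49, adjusted p = 0.00537). On NCD the difference was 0.39 ± 0.20 with an adjusted p of 0.200. Within slides it was higher in AR113Q on 4 of 4 slides on HFD, by 0.63 to 0.91, and on 3 of 5 on NCD. The call on HFD was lost when CTR-HFD replicate 4 was left out (0.67, adjusted p = 0.0613) and kept in the other 18 fits. With a normexp background correction the difference on HFD was 0.46 and not called, and over both diets it was -0.048 (adjusted p = 0.890), where the median of all probes moved to -0.31.

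The other fibrillar chains were not called. Over both diets the difference was 0.06 for Col5a2 and -0.14 for Col5a3, the other type V chains, 0.58 (adjusted p = 0.336) for the cartilage chain Col2a1 and 0.42 (adjusted p = 0.649) for Col11a1. Col24a1, a fibrillar chain of developing bone, stood at -0.41 (adjusted p = 0.0981), and Col27a1, of cartilage, at 0.24 (adjusted p = 0.290). The class median was 0.06 on NCD and 0.22 on HFD.

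Type VI collagen, whose loss causes Ullrich and Bethlem myopathy, did not pass the test for any of its 6 chains. Col6a1 read 3.41, 3.81, 4.06, 3.42 and 3.38 on the CTR-NCD arrays and 3.80, 3.29, 3.71, 3.74 and 3.23 on the AR113Q-NCD arrays, and 3.50, 3.19, 3.50 and 3.62 on the CTR-HFD and 3.58, 3.51, 3.76, 3.50 and 3.42 on the AR113Q-HFD arrays. Col6a2 read 0.88, 1.18, 1.64, 0.73 and 0.54 on the CTR-NCD arrays and 1.35, 0.64, 1.26, 1.02 and 0.35 on the AR113Q-NCD arrays, and 0.66, 0.33, 0.79 and 0.73 on the CTR-HFD and 0.83, 0.86, 1.29, 0.73 and 0.63 on the AR113Q-HFD arrays. Col6a3, the largest chain, read 2.41, 2.49, 2.90, 2.51 and 2.19 on the CTR-NCD arrays and 2.74, 2.25, 2.68, 2.85 and 2.25 on the AR113Q-NCD arrays, and 2.28, 2.42, 2.27 and 2.61 on the CTR-HFD and 2.38, 2.50, 2.78, 2.49 and 2.34 on the AR113Q-HFD arrays. The 3 chains were high and low on the same NCD arrays, replicate 3 of CTR-NCD being the highest CTR-NCD array and replicate 5 the lowest for each. Over both diets the AR113Q minus CTR difference was 0.02 for Col6a1 (95% interval -0.20 to 0.25), 0.09 for Col6a2 (adjusted p = 0.721) and 0.08 for Col6a3 (95% interval -0.14 to 0.30). Of the later described chains, Col6a4 differed by -1.07 (adjusted p = 0.144) on NCD and -0.21 on HFD, Col6a5 by 0.39 and 0.32, and Col6a6 by 0.05 and 0.29.

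Taking the 8 main interstitial chains as a set (Col1a1, Col1a2, Col3a1, Col5a1, Col5a2 and Col6a1 to Col6a3), differences were -0.20 to 0.09 on NCD (adjusted p from 0.749 to 0.906) and 0.07 to 0.36 on HFD (adjusted p from 0.311 to 0.931). Over both diets their intervals lay between a fold of 0.67 and a fold of 1.48.

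Among the basement membrane collagens, the common type IV chains did not pass the test between genotypes, while the rare chains moved in different directions. Col4a1 and Col4a2 form the type IV heterotrimer found in nearly all basement membranes. Col4a1 levels were 2.45, 2.32, 2.80, 2.39 and 2.06 on the CTR-NCD arrays and 2.58, 2.11, 2.80, 2.44 and 1.92 on the AR113Q-NCD arrays, and 1.78, 1.91, 2.44 and 2.01 on the CTR-HFD and 1.90, 1.92, 2.0, 1.99 and 1.99 on the AR113Q-HFD arrays. Col4a2 levels were 2.72, 2.64, 3.04, 2.54 and 2.37 on the CTR-NCD arrays and 2.84, 2.33, 3.02, 2.44 and 2.14 on the AR113Q-NCD arrays, and 2.11, 2.25, 2.67 and 2.32 on the CTR-HFD and 2.24, 2.25, 2.36, 2.23 and 2.21 on the AR113Q-HFD arrays. Genotypes overlapped on both diets, and the HFD arrays lay mostly in the lower part of the NCD range. Over both diets the genotype difference was -0.06 for Col4a1 (95% interval -0.31 to 0.19, adjusted p = 0.764) and -0.09 for Col4a2 (95% interval -0.33 to 0.15, adjusted p = 0.597).

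Col4a3, Col4a4 and Col4a5 encode the chains of a second type IV trimer, best known from the glomerulus of the kidney and from its loss in Alport syndrome. Col4a4 read -0.73, -0.37, -0.81, -0.72 and -0.44 on the CTR-NCD arrays and -0.90, -1.13, -1.12, -0.91 and -1.23 on the AR113Q-NCD arrays, and -0.53, -0.53, -0.79 and -0.57 on the CTR-HFD and -0.96, -1.04, -0.80, -0.73 and -1.51 on the AR113Q-HFD arrays. Every AR113Q-NCD array was below every CTR-NCD array, and on HFD the highest AR113Q array, replicate 4, lay above the lowest CTR array, replicate 3. Col4a4 fell by 0.45 ± 0.13 on the log2 scale on NCD (SE, fold 0.73, adjusted p = 0.0250), where the 2-sided exact permutation p was 0.00794 and 5 of 5 slides were lower in AR113Q. On HFD the difference was -0.40 ± 0.14 (adjusted p = 0.0542), with -0.43 (adjusted p = 0.0432) when the slide was a block and -0.36 (adjusted p = 0.0912) when the replicate number was. Over both diets it fell by 0.43 ± 0.10 (fold 0.74, adjusted p = 0.00249).

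The fall of Col4a4 was seen by 1 of its probes. The main probe, at mm9 chr1:82447879-82447938 on the minus strand, gave the values above, whereas the second probe, 67.6 kb away and printed above, differed by -0.12 (adjusted p = 0.714) on NCD, 0.01 (adjusted p = 0.990) on HFD and -0.05 (adjusted p = 0.774) over both diets. The remaining probe was well above background on 9 arrays and stood at -0.17 (adjusted p = 0.695) over both diets. The authors' table of log2 values, which is per transcript, gave -0.20 on NCD (adjusted p = 0.349) and -0.18 over both diets (adjusted p = 0.192). Whether its row joins several probes is not given, so it is no separate check of the main probe. At the main probe the NCD call was lost when CTR-NCD replicate 2 or 5, or AR113Q-NCD replicate 2, 3 or 5 was left out. Adjusted p was then from 0.0551 to 0.0672. The NCD call was also lost with normexp, at -0.53 (adjusted p = 0.108), where the median of all probes moved to -0.55.

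Col4a3 moved the other way, on HFD. It read -3.91, -4.21, -4.21, -3.72 and -4.30 on the CTR-NCD arrays and -3.99, -4.28, -3.86, -3.85 and -4.06 on the AR113Q-NCD arrays, and -4.25, -4.76, -4.68 and -4.36 on the CTR-HFD and -4.08, -4.14, -3.52, -3.60 and -4.39 on the AR113Q-HFD arrays. The CTR-HFD arrays were the low ones, 3 of the 4 lying below all other CTR arrays, and the AR113Q-HFD group overlapped them through its replicate 5. On HFD Col4a3 rose by 0.57 ± 0.18 in AR113Q (SE, fold 1.48, adjusted p = 0.0342, 2-sided exact permutation p = 0.0476). On NCD it differed by 0.06 ± 0.17 (adjusted p = 0.864). The difference between these effects, the genotype by diet interaction, was 0.50 with an unadjusted p of 0.0536 and an adjusted p of 0.9997. The HFD call was lost on leaving out CTR-HFD replicate 2 (adjusted p = 0.109) or 3 (adjusted p = 0.0853), or AR113Q-HFD replicate 3 (adjusted p = 0.0897) or 4 (adjusted p = 0.0831).

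Col4a5, the X-linked partner of those chains, read -2.31, -2.54, -2.53, -2.03 and -2.35 on the CTR-NCD arrays and -1.87, -2.20, -1.83, -1.80 and -1.84 on the AR113Q-NCD arrays, and -2.27, -2.21, -3.01 and -1.77 on the CTR-HFD and -1.73, -2.04, -1.48, -1.63 and -2.01 on the AR113Q-HFD arrays. On NCD 4 of the AR113Q arrays were above all CTR arrays and replicate 2 was within their range, and on HFD CTR replicate 4 lay among the AR113Q arrays while replicate 3 was far below the rest. The difference was 0.45 ± 0.18 (SE, adjusted p = 0.109) on NCD and 0.53 ± 0.19 (adjusted p = 0.0667) on HFD, and over both diets Col4a5 rose by 0.49 ± 0.13 (fold 1.40, adjusted p = 0.00930). It was higher in AR113Q on 5 of 5 slides on NCD and on 3 of 4 on HFD. With normexp background correction the difference over both diets was 0.11 (adjusted p = 0.654), where the median of all probes moved to -0.31. Col4a6, which pairs with Col4a5 in smooth muscle and epithelium, stood at -0.12 on NCD (adjusted p = 0.847) and 0.12 on HFD (adjusted p = 0.851).

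Type IV genes lie in head-to-head pairs, Col4a1 with Col4a2, Col4a3 with Col4a4 and Col4a5 with Col4a6, each pair sharing the stretch between its starts. Over both diets the differences of partners were -0.06 and -0.09 for Col4a1 and Col4a2, 0.31 (adjusted p = 0.0629) and -0.43 for Col4a3 and Col4a4, and 0.49 and -0.00 (adjusted p = 0.998) for Col4a5 and Col4a6, so that the call of Col4a4 and the call of Col4a5 were each made without one of its partner. In RefSeq on GRCm38.p6 the annotated genes overlap at their starts for Col4a1 and Col4a2 and for Col4a3 and Col4a4, while 1343 bases separate the listed start sites of Col4a5 and Col4a6. The stretch between the listed start sites of Col4a1 and Col4a2 lies within both genes and is shown as an example, with the GGGCGG letters of a GC box in capitals, at GRCm38.p6 chr8:11312805-11312826 on the plus strand.
Col4a1 and Col4a2 overlap: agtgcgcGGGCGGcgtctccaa
Windows from 250 bases before to 50 after the start were searched on both strands for the letters of 3 motifs that do not overlap one another, namely CCAAT of the CCAAT box, GGGCGG of the GC box and TATAAA of the TATA box. Of 32851 such windows, 37.4% held the CCAAT box, 35.7% the GC box and 13.6% the TATA box. The Col4a2 window held the GC box 3 times and the CCAAT box once, the Col4a1 and Col4a5 windows held each of these once, the Col4a6 window held the GC box once, and the Col4a4 window held none of the 3. No window was listed for Col4a3, and 36 of the 44 members had a window in that table.

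Col15a1 and Col18a1 encode the proteoglycan collagens that link basement membranes to the fibrils outside them. Mice lacking Col15a1 develop a mild myopathy, and the tail of Col18a1 yields endostatin. Col15a1 read -3.60, -2.99, -2.67, -2.93 and -2.71 on the CTR-NCD arrays and -3.06, -3.73, -3.11, -3.05 and -3.93 on the AR113Q-NCD arrays, and -3.53, -3.18, -3.19 and -3.37 on the CTR-HFD and -3.93, -3.77, -3.66, -3.66 and -3.99 on the AR113Q-HFD arrays. On HFD all AR113Q arrays were below all CTR arrays, and on NCD AR113Q replicates 2 and 5 were below all CTR arrays while the other 3 lay among them. Over both diets Col15a1 fell by 0.44 ± 0.14 on the log2 scale (SE, fold 0.74, adjusted p = 0.0229). On NCD the difference was -0.39 ± 0.19 (adjusted p = 0.182, 2-sided exact permutation p = 0.159) and on HFD -0.48 ± 0.20 (adjusted p = 0.114, 2-sided exact permutation p = 0.00794). A second probe, well above background on 11 arrays, gave -0.20 (adjusted p = 0.640) over both diets. The call was lost with quantile normalization (adjusted p = 0.0576), with the median of each array (adjusted p = 0.0688) and with normexp (adjusted p = 0.363). With normexp the difference was -0.50, where the median of all probes moved to -0.31.

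Col18a1 read -0.04, 0.08, 0.15, 0.22 and -0.26 on the CTR-NCD arrays and 0.11, -0.17, 0.38, 0.15 and -0.37 on the AR113Q-NCD arrays, and -0.29, 0.15, 0.25 and -0.10 on the CTR-HFD and 0.00, -0.23, 0.01, -0.18 and 0.16 on the AR113Q-HFD arrays. Its groups overlapped throughout, and the difference over both diets was -0.03 (95% interval -0.25 to 0.19, adjusted p = 0.868). The class of 8 basement membrane collagens had medians of -0.07 on NCD and -0.06 on HFD.

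**Figure D3:**
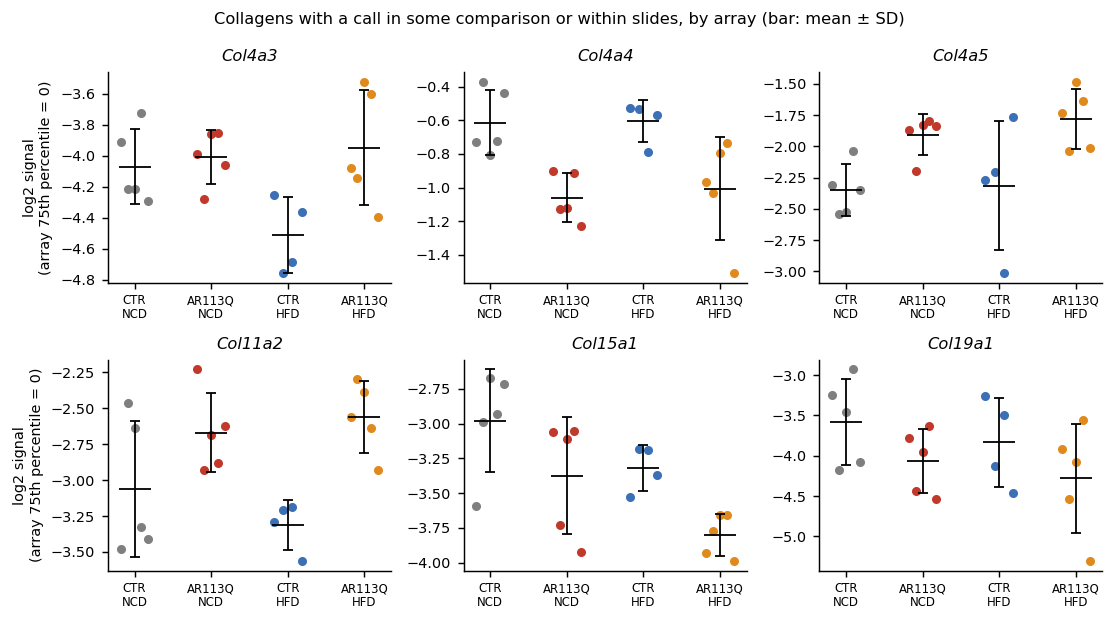
Log2 signal of 6 collagens on each array, relative to the array's 75th percentile, with 1 point per array and the mean ± SD per group. Col4a4 is lower and Col4a5 higher in AR113Q on both diets, Col4a3 and Col11a2 differ mostly on HFD, and Col15a1 and Col19a1 lie lower in AR113Q with wide overlap on NCD.

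The FACIT collagens decorate fibrils or sit at tissue borders. The smallest p-values among all collagen probes belonged to the second probe of Col9a1, a chain of type IX collagen, which coats cartilage fibrils. Its main probe, chosen for its higher mean over all 19 arrays, AR113Q included, was not called in the fit of the 4 groups. In CTR mice, however, the second probe had the higher mean, with -3.57 against -3.89 on NCD and -3.60 against -4.17 on HFD. The authors' log2 values are given per transcript, with a row under the name of the main probe and none for the second probe. Whether that row joins several probes is not given in the sources used here. That row was called by limma, lower in AR113Q on NCD (-0.82, adjusted p = 0.00203), on HFD (-0.97, adjusted p = 0.000949) and over both diets (-0.89, adjusted p = 2.20e-05). Its differences lay between those of the main and the second probe, which on HFD were -0.36 and -1.95. The main probe read -3.33, -4.10, -3.98, -3.83 and -4.21 on the CTR-NCD arrays and -3.88, -4.39, -4.64, -4.09 and -5.40 on the AR113Q-NCD arrays, and -3.47, -4.20, -4.03 and -4.99 on the CTR-HFD and -3.74, -4.53, -4.47, -4.58 and -5.34 on the AR113Q-HFD arrays. The second probe read -3.48, -3.75, -3.98, -3.56 and -3.08 on the CTR-NCD arrays and -5.47, -4.77, -5.49, -5.18 and -5.04 on the AR113Q-NCD arrays, and -3.25, -3.42, -4.17 and -3.55 on the CTR-HFD and -5.90, -5.52, -5.59, -4.32 and -6.37 on the AR113Q-HFD arrays. With the second probe every AR113Q array was below every CTR array on both diets, whereas with the main probe the genotypes overlapped.

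At the second probe Col9a1 fell by 1.62 ± 0.30 on NCD (SE, adjusted p = 0.00102) and by 1.95 ± 0.31 on HFD (adjusted p = 0.000350) on the log2 scale, with 2-sided exact permutation p of 0.00794 and 0.0159. It was lower in AR113Q on 5 of 5 slides on NCD and 4 of 4 on HFD, and was called with each of the 19 arrays left out in turn, though not with normexp background correction (-1.34, adjusted p = 0.145 on NCD, where the median of all probes moved to -0.55). At the main probe the difference was -0.59 ± 0.33 (adjusted p = 0.257) on NCD and -0.36 ± 0.34 (adjusted p = 0.552) on HFD. Within slides the main probe was lower on 5 of 5 slides, with differences of -1.19 to -0.26, and on 4 of 4, with -0.45 to -0.27. With the slide as a block it was called on NCD (adjusted p = 0.00424) and on HFD (adjusted p = 0.0452). With the replicate number as the block, which puts CTR-HFD replicate 4 of slide 5 with the arrays of slide 4, the difference was -0.59 (adjusted p = 0.0366) on NCD and -0.19 (adjusted p = 0.569) on HFD. The probes lie 57.5 kb apart on the plus strand of chromosome 1, the main probe at mm9 chr1:24201545-24201604 and the second at chr1:24259125-24259184. The second probe was taken up after its values had been seen. Counting a gene by any of its tested probes gave 2 collagens on NCD, 3 on HFD and 6 over both diets, against 19.2%, 19.8% and 31.7% of all genes, with Col9a1 added to each and Col20a1 to the last.

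**Figure D4:**
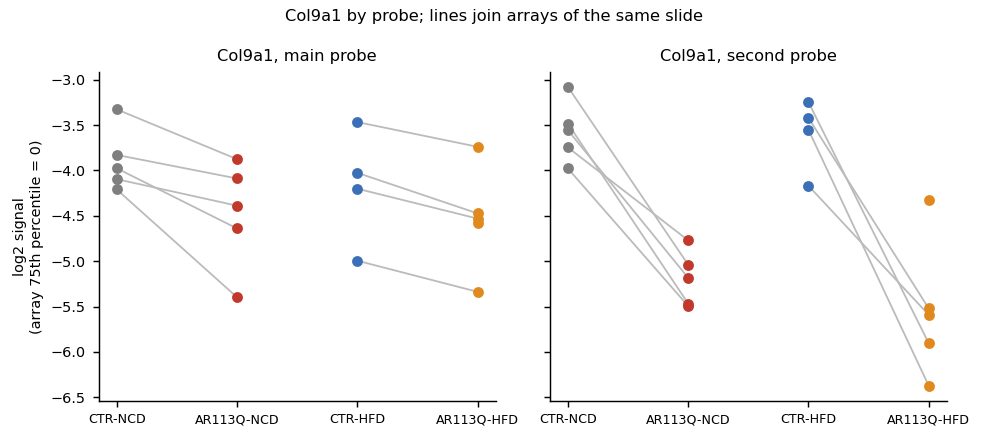
Log2 signal of Col9a1 at its main probe (left) and second probe (right) on each array, relative to the array's 75th percentile, with lines joining CTR and AR113Q arrays of the same slide on the same diet. All lines fall at both probes, and the groups separate at the second probe alone.

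Next to Col9a1 on chromosome 1 lies Col19a1, which encodes a collagen of basement membrane zones. On GRCm38.p6 the pair span bases 24177589 to 24252738 and 24257683 to 24587922, with 4.94 kb and no annotated gene between them. Col19a1 read -3.25, -4.17, -3.46, -2.93 and -4.08 on the CTR-NCD arrays and -3.78, -4.44, -3.95, -3.63 and -4.53 on the AR113Q-NCD arrays, and -3.26, -4.12, -3.50 and -4.47 on the CTR-HFD and -3.92, -4.54, -4.08, -3.56 and -5.30 on the AR113Q-HFD arrays. The genotypes overlapped over a wide range, with AR113Q-HFD replicate 5 the lowest array. The difference was -0.49 (adjusted p = 0.381) on NCD and -0.44 (adjusted p = 0.453) on HFD. On each slide, however, the AR113Q array was the lower one, with differences of -0.70 to -0.26 over 5 of 5 slides on NCD and of -0.84 to -0.41 over 4 of 4 on HFD. With the slide as a block Col19a1 was called in AR113Q on NCD (-0.49, adjusted p = 0.00552), on HFD (-0.59, adjusted p = 0.00226) and over both diets (-0.54, adjusted p = 0.000149). With the replicate number as the block none of these calls was made, with -0.49 (adjusted p = 0.134) on NCD, -0.28 (adjusted p = 0.458) on HFD and -0.38 (adjusted p = 0.0836) over both diets.

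Col22a1, a collagen of the muscle-tendon junction, read 1.44, 2.20, 2.36, 0.67 and 1.81 on the CTR-NCD arrays and 2.09, 1.15, 1.79, 1.97 and 1.82 on the AR113Q-NCD arrays, and 1.79, 1.71, 1.77 and 1.64 on the CTR-HFD and 2.21, 2.02, 1.99, 2.04 and 2.26 on the AR113Q-HFD arrays. On HFD every AR113Q array was above every CTR array, and on NCD CTR arrays reached both above and below the AR113Q arrays. The difference was 0.07 (adjusted p = 0.899) on NCD and 0.38 (adjusted p = 0.375, 2-sided exact permutation p = 0.00794) on HFD. The remaining FACIT chains stood over both diets at 0.06 (Col9a2), 0.07 (Col12a1), -0.21 (Col14a1) and 0.02 (Col16a1), none of them called. Col20a1 stood at 0.18 (adjusted p = 0.0922), with 0.29 (adjusted p = 0.0152) at its second probe.

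Transmembrane collagens anchor in the cell that makes them, and Col13a1 and Col25a1 are made by muscle fibers, the former for the neuromuscular junction and the latter for the entry of motor axons. Col13a1 read -6.17, -5.15, -5.17, -5.81 and -5.16 on the CTR-NCD arrays and -5.90, -5.73, -6.02, -5.28 and -6.08 on the AR113Q-NCD arrays, and -5.85, -4.63, -5.36 and -5.79 on the CTR-HFD and -5.73, -4.79, -4.92, -5.95 and -7.30 on the AR113Q-HFD arrays. Col25a1 read -4.20, -5.21, -4.98, -4.08 and -4.08 on the CTR-NCD arrays and -4.56, -5.09, -4.96, -3.87 and -4.62 on the AR113Q-NCD arrays, and -4.35, -3.47, -4.44 and -4.10 on the CTR-HFD and -4.32, -5.02, -4.39, -4.46 and -4.65 on the AR113Q-HFD arrays. Col13a1 was near the limit of detection, well above background on 3 of 4 CTR-HFD and 4 of 5 AR113Q-HFD arrays, and the groups of both genes overlapped. The difference of Col13a1 was -0.31 (adjusted p = 0.678) on NCD and -0.33 (adjusted p = 0.660) on HFD. For Col25a1 it was -0.11 (adjusted p = 0.852) and -0.48 (adjusted p = 0.297), and at a second probe 0.23 and -0.39. Col23a1 stood at 0.22 over both diets (adjusted p = 0.164).

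The remaining 5 collagens were not called. Col7a1, which forms the anchoring fibrils of skin, stood at 0.20 (adjusted p = 0.584) on NCD and 0.56 (adjusted p = 0.0831) on HFD. Over both diets Col8a1 and Col8a2, the short chains of vessel walls and cornea, stood at -0.06 and 0.02, Col26a1 at 0.13 and Col28a1, a collagen of nerve, at 0.29.

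Diet changed no collagen past the threshold. With HFD minus NCD, 0 of 41 collagens were called in AR113Q mice, in CTR mice or over both genotypes, against 0.0202%, 0% and 0.0243% of all genes, and 0 were called for the genotype by diet interaction, against 0%. At an unadjusted p under 0.05 there were 2 collagens in AR113Q mice (Col4a1 and Col15a1), 2 in CTR mice (Col4a1 and Col4a3), 4 over both genotypes (Col4a1, Col4a2, Col15a1 and Col23a1) and 0 for the interaction, against 6.67%, 8.39%, 11% and 4.6% of all genes. Groups did not overlap for 0 collagens in either genotype, against 2.03% of genes in AR113Q and 2.63% in CTR mice.

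Of the 4 chains with an unadjusted p under 0.05 for diet over both genotypes, 3 were basement membrane collagens. The other, Col23a1, is a transmembrane collagen, and all had negative differences. At 9.76% of the collagens tested they were no more frequent than the 11% over all genes, so no pattern by class is read from them. Over both genotypes the HFD minus NCD difference was -0.39 for Col4a1 (95% interval -0.64 to -0.14, unadjusted p = 0.00445, adjusted p = 0.270 in limma). It was -0.31 for Col4a2 (95% interval -0.55 to -0.07, adjusted p = 0.344), -0.38 for Col15a1 (adjusted p = 0.335) and -0.25 for Col23a1 (adjusted p = 0.440). Col4a1 was lower on HFD on 4 of 5 slides in AR113Q (-0.41) and 4 of 4 in CTR mice (-0.37). In the same comparison the endothelial markers had a median of -0.22 and the mural cell markers of vessels -0.25, with 0 of 8 and 0 of 6 called. The mean level of the endothelial markers per array ranged from 0.76 to 0.95 for CTR and from 0.60 to 1.01 for AR113Q mice on NCD, and from 0.51 to 1.08 for CTR and 0.45 to 0.62 for AR113Q mice on HFD. For the mural markers the ranges were 1.65 to 2.20 and 1.81 to 2.35 on NCD, and 1.49 to 2.02 and 1.56 to 1.81 on HFD. The part of vessel content in the type IV differences was not tested. In CTR mice Col4a3 stood at -0.44 on HFD (unadjusted p = 0.0228, adjusted p = 0.520 in limma), lower on 4 of 4 slides.

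The main matrix chains moved together from array to array on NCD, and this shared spread was larger than any difference between their groups. Averaged over the 8 interstitial chains, the deviation from the mean of all 19 arrays was -0.27, 0.37, 0.63, -0.16 and -0.30 in CTR-NCD and 0.39, -0.43, 0.18, 0.40 and -0.44 in AR113Q-NCD arrays. On HFD it was -0.25, -0.32, 0.00 and -0.01 in CTR and 0.01, -0.06, 0.30, -0.04 and -0.01 in AR113Q arrays. The range within a group was thus 0.93 and 0.83 on NCD, against 0.32 and 0.36 on HFD. High and low arrays occurred in both genotypes on NCD and on different slides.

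Of the 14 collagens with a mean log2 signal of at least 0, the SD was larger in AR113Q-NCD than in AR113Q-HFD for 14 and larger in CTR-NCD than in CTR-HFD for 10. For all genes of that level these shares were 46.7% and 36.5%. The median SD of the 14 was 0.303 in CTR and 0.394 in AR113Q mice on NCD, against 0.245 and 0.149 on HFD, and their pooled SD had a median of 0.335, against 0.125 for the 8288 genes of that level. Since these chains vary together, they do not count as separate observations of the spread, and no test was made of it.

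Tendon markers were uneven over the same arrays. The mean log2 level of 8 tendon markers was 0.07, 1.84, 1.32, -1.46 and -1.30 in CTR-NCD and 0.40, -0.93, 0.45, 0.87 and -0.26 in AR113Q-NCD arrays. On HFD it was -0.11, -0.38, 0.59 and -0.54 in CTR and 0.31, -0.02, 0.47, -0.34 and 0.46 in AR113Q arrays. The CTR-NCD replicates 2 and 3 were thus the highest arrays for tendon markers and, of the CTR-NCD arrays, the highest for the interstitial chains. Fibroblast markers averaged 3.23, 3.51, 3.58, 3.24 and 3.02 in CTR-NCD and 3.29, 3.07, 3.36, 3.38 and 3.19 in AR113Q-NCD arrays. On HFD they averaged 3.17, 3.31, 3.27 and 3.15 in CTR and 3.32, 3.18, 3.52, 3.25 and 3.33 in AR113Q arrays. CTR-NCD replicates 2 and 3 and AR113Q-HFD replicate 3 were thus the highest of their groups, as for the interstitial chains. In CTR-HFD replicate 2 was the highest for fibroblast markers and the lowest for those chains. The part of tendon, sheath or fibroblasts carried in the sample was not tested.

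**Figure D5:**
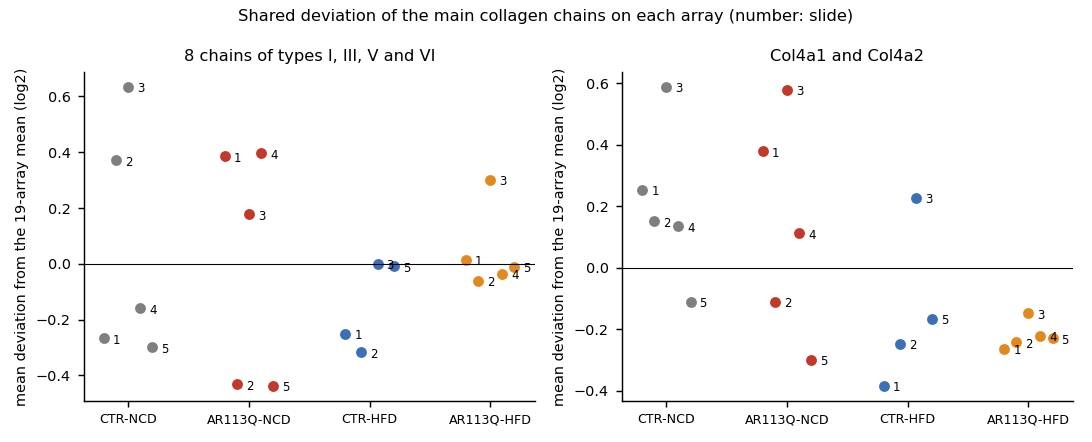
Mean log2 deviation from the mean of all 19 arrays, per array, for 8 chains of types I, III, V and VI (left) and for Col4a1 and Col4a2 (right), with the slide number beside each point. The NCD groups spread over 0.93 and 0.83 on the left, the HFD groups over 0.32 and 0.36, and on the right all but 1 of the HFD arrays lie below 0.

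The lists that follow are read against the 17.4% of all genes called on NCD, 17.9% on HFD and 29.1% over both diets. Of the machinery that folds and modifies collagen chains, 20 genes were tested. On NCD 1 was called, P4hb, the shared subunit of prolyl hydroxylase, which fell by 0.28 (adjusted p = 0.00800). On HFD 3 were called: P4ha2, a catalytic subunit of the same enzyme, fell by 0.52 (adjusted p = 0.00199), Lepre1, the prolyl 3-hydroxylase, fell by 0.34 (adjusted p = 0.0380), and its partner Crtap rose by 0.47 (adjusted p = 0.0460). Over both diets 3 of the 20 were higher and 3 lower, which is about the share over all genes, with Plod2, a lysyl hydroxylase of cross-linking telopeptides, higher by 0.44 (adjusted p = 0.0449) and Colgalt2, a collagen galactosyltransferase, higher by 0.29 (adjusted p = 0.00517). Serpinh1, the collagen chaperone, stood at -0.06 over both diets and was not called. The list's median was 0.07 on NCD and 0.04 on HFD.

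Of 12 genes that trim propeptides or cross-link fibrils, 0 were called on NCD and 1 on HFD, the procollagen N-proteinase Adamts14, which rose by 0.72 (adjusted p = 0.00165). Lox, the lysyl oxidase, stood at 0.03 over both diets. None of 13 genes for collagen breakdown was called on either diet, and over both diets the membrane-bound Mmp15 fell by 0.18 (adjusted p = 0.0335). The gelatinases Mmp2 and Mmp9 stood at 0.13 and 0.19 and their inhibitor Timp1 at 0.00. Among 7 collagen receptors, the discoidin receptor Ddr1 rose by 0.32 on NCD (adjusted p = 0.0267) and none was called on HFD.

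Of 16 genes of the TGF-beta pathway, which drives collagen transcription, 3 were called on each diet, a share close to the 17.4% and 17.9% of all genes, and 5 over both diets, against 29.1%. The ligand Tgfb3 rose by 0.69 on NCD (adjusted p = 1.53e-05) and by 0.88 on HFD (adjusted p = 4.22e-06). Its receptor Tgfbr2 rose by 0.33 (adjusted p = 0.0293) and 0.32 (adjusted p = 0.0450). Smad3, the signal carrier, fell by 0.55 on NCD (adjusted p = 0.0405), and Ltbp3, which holds the latent ligand, rose by 0.41 on HFD (adjusted p = 0.00110). The medians of the list were 0.09 and -0.02.

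Of 10 partners of type IV collagen in the basement membrane, 2 were called on NCD, both higher, against 17.4% of all genes, and 3 on HFD, 2 of them higher, against 17.9%. Over both diets 4 of the 10 were called, all higher (Lamb2, Lama2, Hspg2 and Lamb1). Of all genes 29.1% were called there and 13% were called higher. The laminin chain Lamb2 rose by 0.29 (adjusted p = 0.0187) on NCD and 0.30 (adjusted p = 0.0216) on HFD, and perlecan, Hspg2, rose by 0.27 on NCD (adjusted p = 0.0248). On HFD Lama2, the laminin chain of muscle fibers, rose by 0.42 (adjusted p = 0.00598) and Lama5 fell by 0.29 (adjusted p = 0.0452). Of 12 proteins that bind fibrils, lumican, Lum, was the one called, rising by 0.28 on NCD (adjusted p = 0.0452) and 0.42 on HFD (adjusted p = 0.00559).

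Few markers of the other cells that muscle holds were called between genotypes. Of 8 fibroblast and fibro-adipogenic markers, Lum alone was called, with medians of -0.03 on NCD and 0.12 on HFD. Of 8 tendon markers, 0 were called on NCD and Scx, a tendon transcription factor, rose by 0.79 on HFD (adjusted p = 0.0216), with medians of 0.02 and 0.28. Of 8 endothelial markers, Vwf fell by 0.37 on NCD (adjusted p = 0.0255), with medians of -0.05 and -0.22. None of 6 mural, 7 white adipocyte or 7 macrophage markers was called on either diet, with medians of 0.09 and -0.03, 0.16 and -0.16, and -0.03 and 0.18. Of 8 Schwann cell markers, S100b rose by 0.58 on NCD (adjusted p = 0.00521) and none was called on HFD. The Schwann medians were 0.27 and 0.13, with 7 of the 8 markers above 0 on each diet. Of 4 cartilage and bone markers tested, Sox9, the factor that drives type II, IX and XI collagen in cartilage, rose by 1.11 on NCD (adjusted p = 0.000956) and 0.71 on HFD (adjusted p = 0.0277), while Matn1, Matn3 and Hapln1, defining products of chondrocytes, did not pass the filter on dim probes. No other tested marker of that list was called. Its medians were -0.02 on NCD and -0.19 on HFD, with 2 of the 4 markers below 0 on NCD and 3 on HFD.

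The same arrays held large genotype differences outside the matrix. All 6 fast fiber genes fell on both diets, among them the muscle creatine kinase Ckm by 0.70 on NCD (adjusted p = 9.04e-06) and 0.72 on HFD (adjusted p = 1.37e-05). Of 12 genes known to rise on denervation, 5 were higher on NCD, and 6 were higher and 1 lower on HFD, with the acetylcholine receptor chain Chrna1 rising by 1.51 (adjusted p = 6.17e-06) and 1.99 (adjusted p = 1.20e-06). The 6 slow fiber genes had medians of 2.38 and 1.28 and none was called, and they spread widely within groups. Their mean level per array ranged from 0.36 to 5.03 in CTR and from 4.84 to 5.98 in AR113Q mice on NCD. On HFD it ranged from -1.64 to 5.22 in CTR and from -0.18 to 4.55 in AR113Q mice.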

How the data were processed

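Total RNA of quadriceps was labelled with Cy3 and hybridized to one-colour Agilent arrays, 19 in all. Per the submitters' processing notes, spots were read with Agilent Feature Extraction 10.7.3.1. The deposited intensity of a spot was background-subtracted and corrected for trends across the array by that software and was not normalized across arrays. Beside these files the authors deposited a table of log2 values per transcript, with column medians of 7.59 to 7.65 and not centred, whose normalization is not given in the sources used here. It lists 35 of the collagens and served as an alternative.

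The intensities were taken to log2 without the 1377 control spots and the outlier spots, replicate spots were averaged per probe (43020 spots, 39429 probes), and each array's 75th percentile was subtracted. Testing of a probe required 0.5 or more of its spots well above background on 4 arrays or more (32026 probes), and a gene was represented by its tested probe with the highest mean. The 4 groups were fitted together with limma 3.58.1 (lmFit and eBayes) in R 4.3.3, with Benjamini-Hochberg adjustment over all probes tested and calls at an adjusted p under 0.05. Files were read with the data.table package, version 1.17.8. Collagens given with array values were also put to 2-sided exact permutation tests over arrays and compared within the 5 slides, each of which was scanned as a unit, so slide and scan cannot be told apart. The method was tested on simulated data.

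Array values are given for 15 collagens listed by hand and for every collagen called in any comparison, 19 genes in all, and for 2 probes of Col9a1, added after their values were seen. Other members are given by class. The members, gene lists and rules were chosen with earlier results of these data known. Gene lists are described by counts and medians. Alternatives were quantile normalization, the median of each array, normexp background correction (offset 50), the authors' log2 values, no filter or a strict filter on dim probes, the slide or the replicate number as a block, weights per array, the mean over probes, fits of the groups compared alone, a fold threshold of 1.5 or 0.6, and each array left out. Promoter windows and gene positions are from RefSeq on GRCm38.p6, and probe positions are those of mm9 in the files. Proteins and histology were not analysed here.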

Additional observations from a re-analysis of the deposited data

Results flagged for a closer look

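Of 84 sets of arrays, each 1 of the 21 probes with array values in 1 of the 4 groups, 4 held an array set well apart from the others of its group, about as many as the 1 in 20 that chance gives (4.2). Col3a1 in AR113Q-HFD replicate 3 stood at 4.15, with the nearest array at 3.86. Col4a2 on the same array stood at 2.36, with the nearest at 2.25. Col4a4 in CTR-HFD replicate 3 stood at -0.79, with the nearest at -0.57, and Col4a5 in AR113Q-NCD replicate 2 at -2.20, with the nearest at -1.87.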

How the results depend on the processing

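For collagens called between AR113Q-NCD and CTR-NCD (1 as reported), alternatives gave 0 with the median of each array, with normexp and with the fold threshold, 2 with array weights, with only the groups compared and with any tested probe (chosen after seeing the data), and 3 with the slide as a block. Between AR113Q-HFD and CTR-HFD (2 as reported) they gave 0 with normexp, 1 with the fold threshold, 3 with only the groups compared and with the authors' values, 4 with quantile normalization and with probes above background on all arrays, and 5 with the slide as a block. Over both diets (4 as reported) they gave 0 with the fold threshold, 1 with normexp (Col4a4), 6 with any tested probe and 9 with the slide as a block, which added Col4a3, Col6a4, Col9a1, Col19a1 and Col20a1. Of all 32026 probes, 5625 were called on NCD, 5741 on HFD and 9395 over both diets, against 7856, 8960 and 12752 with the slide as a block and 818, 933 and 2301 with normexp. Leaving out 1 array at a time gave 0 to 2 collagens on NCD, 1 to 3 on HFD, 4 to 7 over both diets, and 0 to 0 in the diet and interaction comparisons. With the authors' values on NCD, Col9a1 was called and Col4a4 was not. The cause of these differences was not tested.

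Under the normexp background correction, Col11a2 for AR113Q minus CTR over both diets turned from 0.57 to -0.048 with an adjusted p of 0.890, while the median of all probes moved to -0.31 there, to -0.55 on NCD and to -0.02 on HFD. The median of each array gave 2388 called probes on NCD.

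Arrays with the same replicate number did not always deviate together (correlations of -0.21 to 0.54 over 27 pairs, median 0.24, against -0.09 for other pairs), though 14 of 19 arrays were closest to their own number. The numbers were not taken as a pairing. With the replicate block, 2 collagens were called on NCD (Col4a4 and Col9a1), 3 on HFD (Col4a3, Col4a5 and Col11a2) and 6 over both diets. Scan as a block was not run, as it equals the slide. Of 14 collagens with several tested probes, the probes disagreed in sign for 8 on NCD, 4 on HFD and 5 over both diets.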
